A study of Rattus norvegicus with 30 samples.

Results

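The p53 target genes Cdkn1a, Aen, Mdm2, Ccng1, Btg2 and Bax and the stress genes Gadd45a and Gadd45b were followed on 30 liver arrays, through the probe sets that the platform annotation ties to those symbols. Of these 8 genes, 6 could be read, through 10 of the 31042 probe sets tested. The probe set for Bax also names a second gene, so it was not read as Bax, and no probe set was tied to Btg2 alone in the annotation used, so its expression was not analysed here. Each gene was read from its representative, which was the probe set with the highest mean over all arrays among those that name no other gene, as were the 14217 genes that gave the background.

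The rats were Wistar/Han, a stock of outbred albino rats. DE-71 is a commercial flame retardant made of polybrominated diphenyl ethers (PBDE), given here by gavage in corn oil at 50 mg/kg. Dams were dosed from gestation day 6 to postnatal day 21, with gavage of the pups themselves up to that day, and rats kept past weaning were treated 5 days a week. Livers came from male DE-71 pups, male control pups, female DE-71 pups and female control pups on postnatal day 22, and from adult male DE-71 rats and adult male control rats at week 13, with 5 livers in each group. All controls belonged to the 0 mg/kg dose group. Each animal of a group came from a different dam, so the replicates were separate animals, and adult females were not among the groups.

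The transcription factor p53 is held at a low level by the ubiquitin ligase Mdm2 and is stabilised by kinases that sense damaged DNA. It then switches on genes that stop the cell cycle, repair DNA or kill the cell, and Mdm2 itself is one of its targets, which closes a feedback loop. Cdkn1a encodes p21, an inhibitor of cyclin-dependent kinases, Aen encodes a nuclease that digests nucleic acids during apoptosis, and Ccng1 encodes cyclin G1, which recruits a phosphatase to Mdm2. The Gadd45 proteins are small stress sensors that bind stress kinases and Pcna. Gadd45b is induced in mouse liver by activators of the nuclear receptor CAR, a sensor of foreign compounds, and during regeneration, and it protects growing hepatocytes in that species.

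On the log2 scale of the deposited values, the arrays had medians between 5.72 and 5.77, and hepatocyte marker genes such as albumin averaged between 14.6 and 14.8 on all arrays. A prefix in the array names divided the arrays into 2 sets of 3 groups. Male pups of both treatments and female controls formed the first, and female DE-71 pups and both adult groups formed the second. For male pups and for adults the DE-71 comparison lay within 1 set, whereas in the dose comparison of female pups, between the sexes with DE-71, for sex by dose, and between ages, the array set and the contrast cannot be told apart. Control pups of both sexes lay within 1 set. RNA integrity was gauged from Gapdh, as the level of its 3′ minus its 5′ control probe set, which averaged more on DE-71 arrays in each dose comparison. In male pups it was 2.09 ± 0.65 with DE-71 and 1.61 ± 0.33 in controls (SD, n = 5, exact permutation p = 0.198). In female pups it was 1.93 ± 0.30 with DE-71 and 1.26 ± 0.505 in controls (exact p = 0.0397, adjusted over 3 tests 0.0596), and in adults 1.17 ± 0.62 with DE-71 and 0.619 ± 0.184 in controls (exact p = 0.0238, adjusted 0.0596). In bulk tissue, fewer cells of a type and less RNA per cell cannot be told apart.

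The DE-71 comparisons asked which of these genes responded to the mixture at each age and in each sex. Gadd45b rose in all 3 settings. Mdm2 rose in pups of both sexes. In adults Cdkn1a and Aen fell, while Ccng1 and Gadd45a did not pass the test in any dose comparison. Of the 6 genes, 2 rose and 0 fell in male pups, where limma's test at an adjusted p of 0.01 called 7.48% of all genes. In female pups, 2 rose and 0 fell against 6.13% of all genes called. In adults, tested at 0.05, 1 rose and 2 fell against 3.9% of all genes. The median log2 change of the 6 genes was 0.0975 in male pups, 0.269 in female pups and -0.202 in adults, and over all genes it was 0.0202, 0.0161 and 0.00915 in that order.

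**Figure D1:**
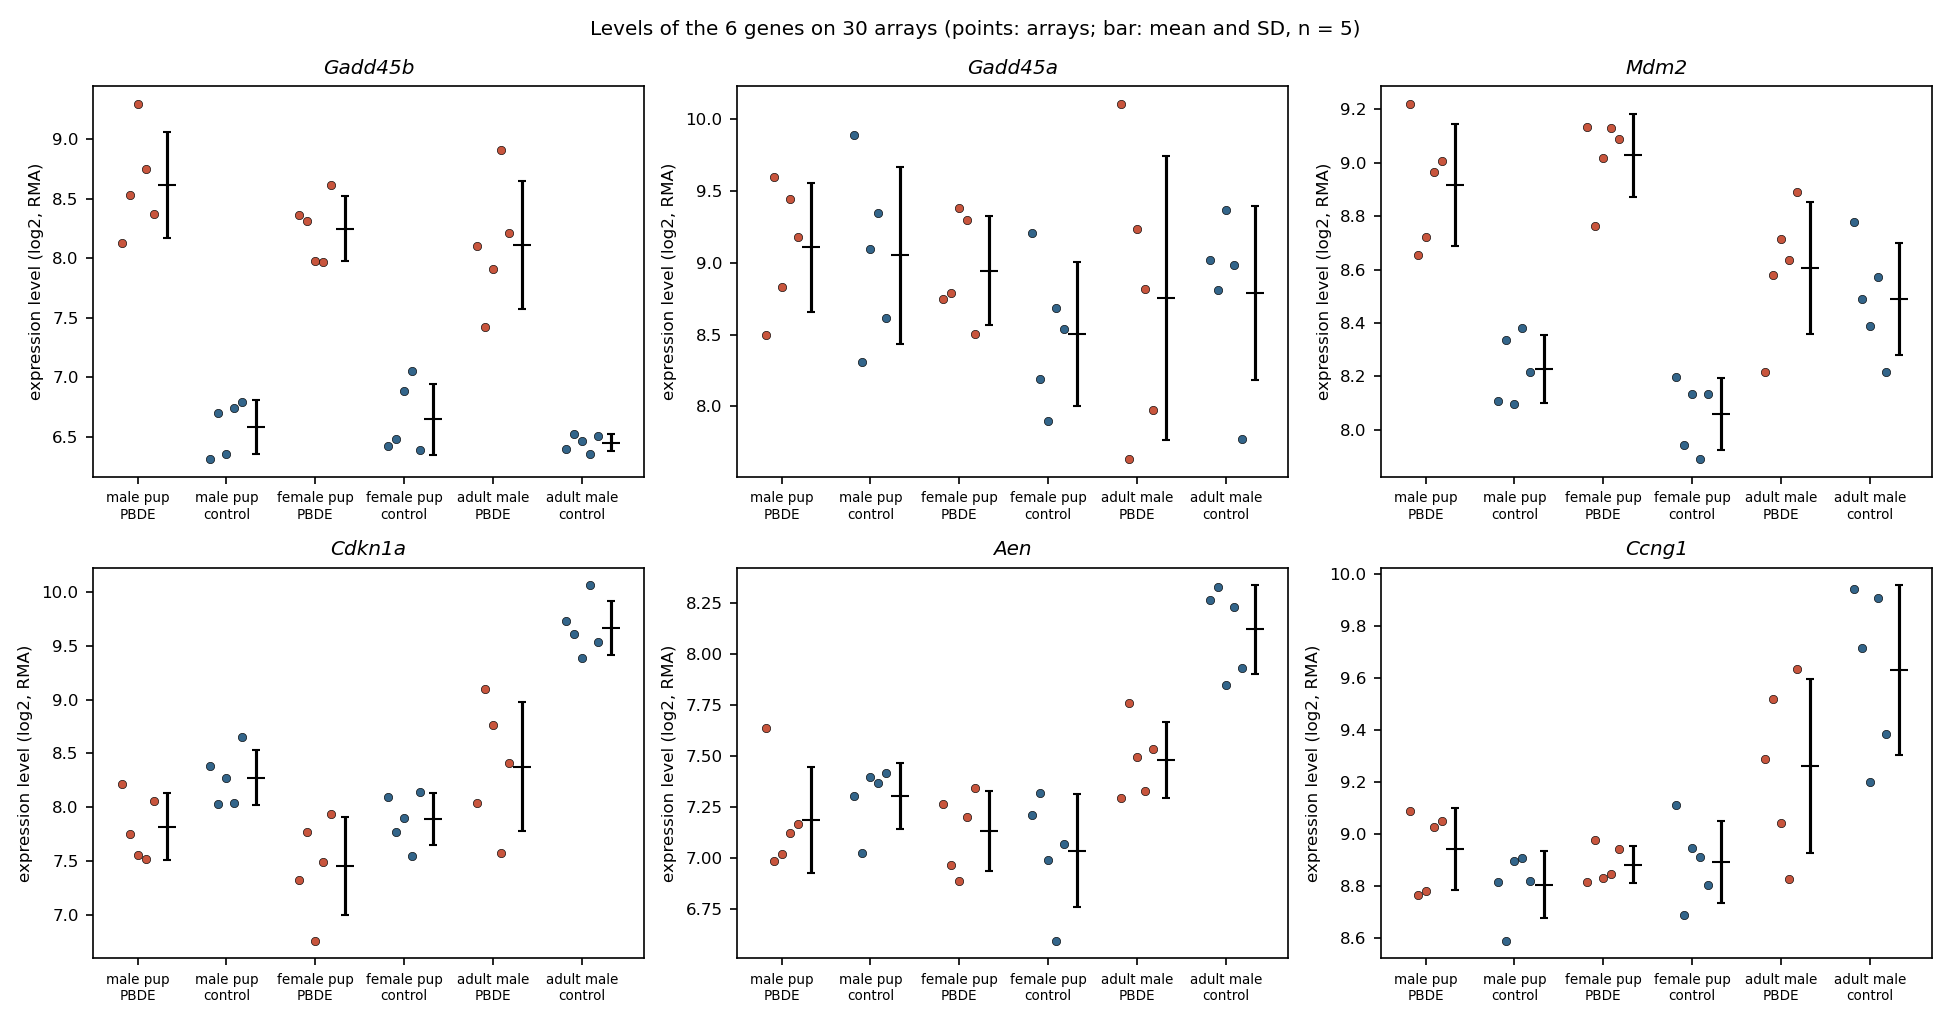
Expression levels (log2, RMA) of the 6 genes on 30 arrays, 1 panel per gene, with DE-71 groups in red to the left of their controls in blue. Points are arrays and bars are means with SD (n = 5). The Gadd45b points of every DE-71 group lie above every control point, and for Cdkn1a and Aen the adult controls lie above all other arrays.

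Gadd45b was read from probe set 1372016_at. In male pups its log2 levels were 8.13, 8.53, 9.30, 8.75 and 8.37 with DE-71, against 6.31, 6.70, 6.36, 6.74 and 6.79 in controls. In female pups they were 8.36, 8.31, 7.98, 7.97 and 8.61 with DE-71, against 6.42, 6.48, 6.88, 7.05 and 6.39 in controls. In adults they were 8.10, 7.42, 7.91, 8.91 and 8.21 with DE-71, against 6.40, 6.52, 6.46, 6.36 and 6.51 in controls. The lowest DE-71 array of the whole series, an adult, lay above the highest control array, a female pup. The adult controls were the most even group, with an SD of 0.0716, whereas the adult DE-71 rats had an SD of 0.54 (n = 5 each).

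The increase of Gadd45b was 4.11-fold in male pups (log2 change 2.04 ± 0.20, SE, limma adjusted p = 5.44e-08). It was 3.04-fold in female pups (1.60 ± 0.20, limma adjusted p = 3.44e-06) and 3.16-fold in adults (1.66 ± 0.20, limma adjusted p = 5.98e-06). Groups that did not overlap in the higher direction made up 6.77% of all genes in male pups, 6.56% in female pups and 2.44% in adults. By mean, the DE-71 groups stood in the order male pups, female pups and adults, and neighbours in that order overlapped, as did the 3 control groups among themselves. The change in adults minus that in male pups was -0.38 ± 0.29 (limma adjusted p = 0.607), and the change in male minus female pups was 0.43 ± 0.29 (limma adjusted p = 0.977), with a 95% interval of -0.15 to 1.02.

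Gadd45a, which p53 is known to activate through a site in an intron of the human gene, was read from probe set 1368947_at and differed widely between animals of a group. Its levels ran from 8.50 to 9.60 in male DE-71 pups and from 8.31 to 9.89 in male controls. They ran from 8.50 to 9.38 in female DE-71 pups and from 7.90 to 9.21 in female controls, and from 7.63 to 10.11 in DE-71 adults and from 7.77 to 9.37 in adult controls. The groups overlapped in each pair. The log2 changes were 0.06 ± 0.36 in male pups, 0.44 ± 0.36 in female pups and -0.04 ± 0.36 in adults (SE, limma adjusted p between 0.555 and 0.976). Its SD within groups was 0.623 on 24 degrees of freedom, larger than that of 99.3% of genes, and the 95% interval in male pups reached from -0.68 to 0.80, so that an increase of the size seen for Gadd45b lay outside it.

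The third family member, Gadd45g, was also uneven between animals. It averaged 7.68 ± 1.17 in DE-71 adults and 9.32 ± 0.89 in adult controls (SD, n = 5), a log2 difference of -1.64 ± 0.55 that did not pass the test (limma adjusted p = 0.103). In male pups the difference was -0.15 ± 0.55 and in female pups -0.53 ± 0.55 (SE, limma adjusted p 0.913 and 0.664). Of the 8 genes read among Gadd45g, a Gadd45-interacting protein and the stress kinases downstream of Gadd45 proteins, limma called 0 in each dose comparison. At an unadjusted p below 0.05 there were 1 in male pups, 2 in female pups and 4 in adults (12.5%, 25% and 50%, against 28.3%, 25.4% and 18.5% of all genes).

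Mdm2 was read from probe set 1383288_at. In male pups its log2 levels were 9.22, 8.66, 8.72, 8.97 and 9.01 with DE-71, against 8.11, 8.33, 8.10, 8.38 and 8.22 in controls. In female pups they were 9.14, 8.76, 9.02, 9.13 and 9.09 with DE-71, against 8.20, 7.94, 8.13, 7.89 and 8.13 in controls. In adults they were 8.22, 8.58, 8.71, 8.64 and 8.89 with DE-71, against 8.78, 8.49, 8.39, 8.57 and 8.22 in controls. In pups of each sex all DE-71 arrays lay above all controls, and in adults the ranges coincided.

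The change of Mdm2 was 1.61-fold in male pups (log2 0.69 ± 0.12, SE, limma adjusted p = 1.71e-04) and 1.96-fold in female pups (0.97 ± 0.12, limma adjusted p = 1.58e-06). In adults it was 0.12 ± 0.12 with a 95% interval of -0.12 to 0.36 (limma adjusted p = 0.68). The adult change minus the male pup change was -0.57 ± 0.16, which missed the threshold for this probe set (limma adjusted p = 0.0692) and passed it for a second one, 1384427_at (-0.76 ± 0.14, limma adjusted p = 0.00365). That probe set rose by 0.70 ± 0.10 in male pups (limma adjusted p = 1.87e-05) and by 0.81 ± 0.10 in female pups (limma adjusted p = 2.23e-06), and had -0.06 ± 0.10 in adults (limma adjusted p = 0.829). Within groups its Pearson's r with the representative was 0.765 over 30 arrays, and that of the remaining probe set, 1383485_at, was -0.38. Probe set 1383485_at had group means between 5.87 and 6.38 and changed by at most 0.18 in size in any dose comparison (limma adjusted p between 0.345 and 0.835).

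**Figure D2:**
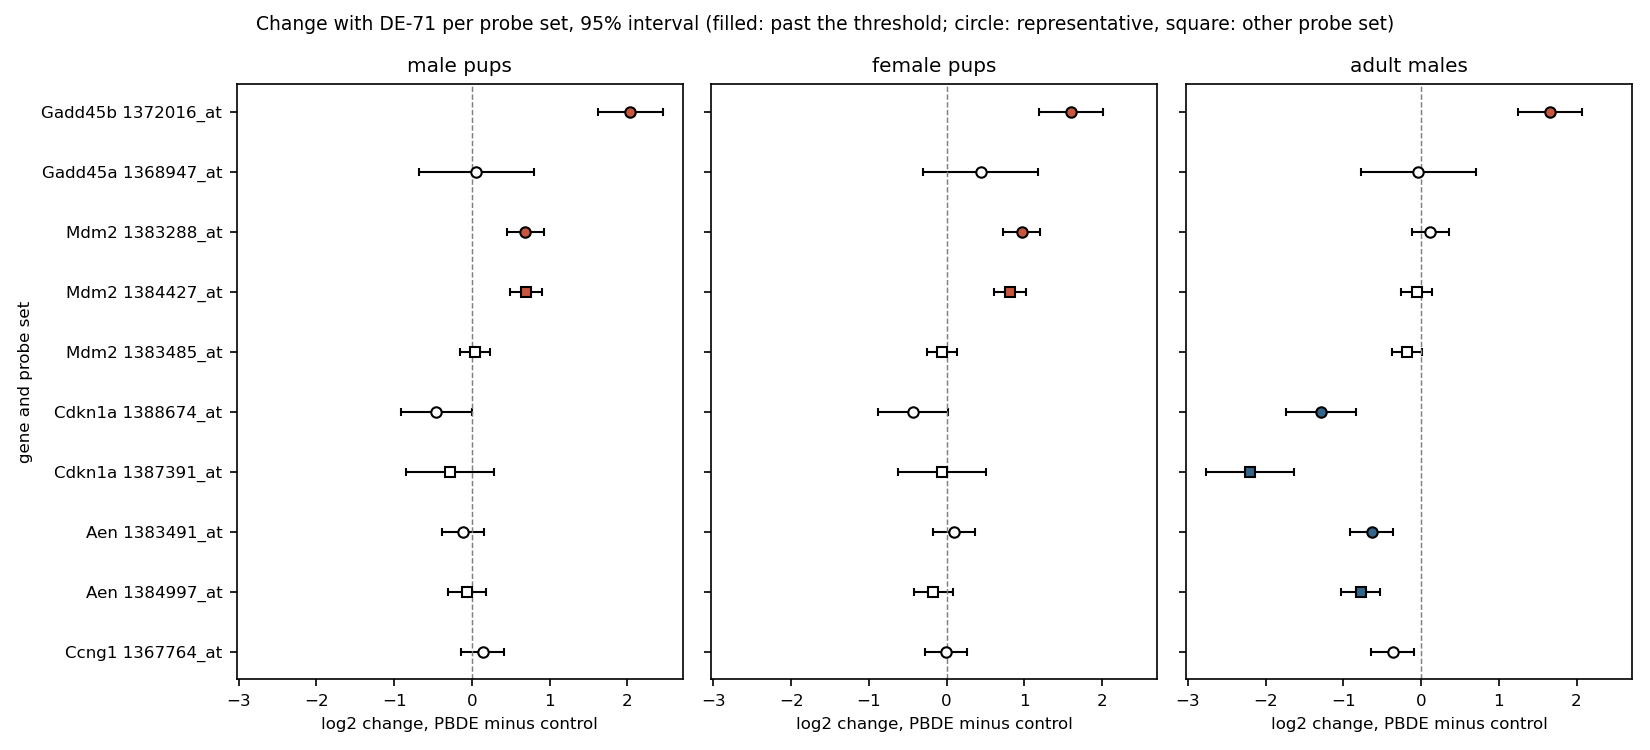
Log2 change, DE-71 minus control, with its 95% interval for each of the 10 probe sets, in male pups, female pups and adult males. Filled symbols passed the test, circles are representatives and squares the other probe sets. Mdm2 rose in pups by 2 of its 3 probe sets, and both probe sets of Cdkn1a and of Aen were lower in adults.

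Cdkn1a was read from probe set 1388674_at. In adults its log2 levels were 8.04, 9.10, 8.76, 7.58 and 8.42 with DE-71, against 9.73, 9.61, 9.39, 10.06 and 9.53 in controls. In male pups they were 8.22, 7.75, 7.56, 7.52 and 8.06 with DE-71, against 8.38, 8.03, 8.27, 8.04 and 8.65 in controls. In female pups they were 7.33, 7.77, 6.76, 7.50 and 7.93 with DE-71, against 8.09, 7.77, 7.90, 7.55 and 8.14 in controls. The adult controls lay above every other array of the series, and the range of the DE-71 adults took in that of the male control pups. In pups of both sexes the groups overlapped.

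Cdkn1a fell 2.44-fold in DE-71 adults (log2 -1.29 ± 0.22, SE, limma adjusted p = 8.17e-04). Groups that did not overlap in the lower direction made up 2.15% of all genes there. The second probe set, 1387391_at, was at 5.63, 6.19, 5.93, 4.72 and 5.33 in DE-71 adults, against 8.46, 8.19, 6.75, 7.86 and 7.54 in adult controls, a fall of 4.60-fold (-2.20 ± 0.27, limma adjusted p = 8.75e-06). Within groups the 2 probe sets had a Pearson's r of 0.504 over 30 arrays. In male pups the representative had -0.46 ± 0.22 (95% interval -0.91 to -0.0049, limma adjusted p = 0.208) and in female pups -0.43 ± 0.22 (-0.89 to 0.02, limma adjusted p = 0.271). The second probe set had -0.28 ± 0.27 in male pups and -0.06 ± 0.27 in female pups (limma adjusted p 0.599 and 0.944). The adult minus the male pup change was -0.83 ± 0.31 for the representative (limma adjusted p = 0.19) and -1.92 ± 0.39 for the second probe set (limma adjusted p = 0.00693).

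Aen, read from probe set 1383491_at, was at 7.30, 7.76, 7.49, 7.33 and 7.53 in DE-71 adults, against 8.26, 8.33, 7.85, 8.23 and 7.93 in adult controls. It fell 1.56-fold (log2 -0.64 ± 0.13, SE, limma adjusted p = 0.0056), and the groups did not overlap. Its second probe set, 1384997_at, fell by 0.78 ± 0.12 (limma adjusted p = 2.61e-04), and within groups its Pearson's r with the representative was 0.209 over 30 arrays. In pups the ranges overlapped. Male DE-71 pups were at 7.64, 6.99, 7.02, 7.12 and 7.17, against 7.30, 7.02, 7.40, 7.37 and 7.42 in male controls, a change of -0.12 ± 0.13 (limma adjusted p = 0.668). Female DE-71 pups ran from 6.89 to 7.34 and female controls from 6.60 to 7.32, a change of 0.10 ± 0.13 (limma adjusted p = 0.766). The adult minus the male pup change was -0.52 ± 0.19 (limma adjusted p = 0.168), and -0.71 ± 0.17 for the second probe set (limma adjusted p = 0.0251).

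Ccng1, with the single probe set 1367764_at, was at 9.29, 9.52, 9.04, 8.83 and 9.64 in DE-71 adults, against 9.94, 9.71, 9.20, 9.91 and 9.39 in adult controls. The ranges overlapped, and the change of -0.37 ± 0.13 (95% interval -0.64 to -0.10) did not pass the test (limma adjusted p = 0.136). Without replicate 3 of the adult controls, the lowest array of that group, it was -0.48 with an adjusted p of 0.0488. In pups its levels were tight. They ran from 8.76 to 9.09 in male DE-71 pups and from 8.59 to 8.91 in male controls, and from 8.82 to 8.98 in female DE-71 pups and from 8.69 to 9.11 in female controls, with changes of 0.14 ± 0.13 and -0.01 ± 0.13 (limma adjusted p 0.597 and 0.982).

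These p53 targets also differ in the sequence before their start sites, which is shown here because both genes that fell in adults carry a close match to the p53 site in that window. Promoter windows of 250 bases before to 50 bases after the start, from RefSeq on assembly GRCr8, were searched for 2 consensus p53 decamers placed end to end, with at most 2 mismatches and with the central C and G of each decamer kept. The consensus is its own reverse complement, so 1 search covers both strands. The start is that of the transcript chosen in the table, and other transcripts of a gene can begin elsewhere. The gene span listed for Aen begins at chr1:142224499, so its site, though before the start used, lies inside that span. That of Cdkn1a begins at chr20:7150820, inside the window, so its site lies before the span and closer to its 5′ end than to the start used. Such a site stood in 112 of 33469 windows (0.335%) and, with at most 1 mismatch, in 17 (0.0508%). Of the 8 genes, 7 were matched in the table, Bax not, and 3 held a site: Cdkn1a with 1 mismatch, 201 to 182 bases before the start, Ccng1 with 1 mismatch, 242 to 223 bases before it, and Aen with 2 mismatches, 30 to 11 bases before it. The 250 bases before the start are given 5′ to 3′ on the strand of the gene, with the matched site in capitals, for Cdkn1a (chr20:7150682-7150931, plus strand), Aen (chr1:142224283-142224532, plus strand) and Ccng1 (chr10:25684877-25685126, minus strand).
Cdkn1a: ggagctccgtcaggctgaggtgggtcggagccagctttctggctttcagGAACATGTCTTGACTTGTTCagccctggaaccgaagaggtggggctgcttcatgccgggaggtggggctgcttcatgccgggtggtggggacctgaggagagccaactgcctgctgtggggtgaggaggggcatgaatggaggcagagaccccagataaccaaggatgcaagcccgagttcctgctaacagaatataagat
Aen: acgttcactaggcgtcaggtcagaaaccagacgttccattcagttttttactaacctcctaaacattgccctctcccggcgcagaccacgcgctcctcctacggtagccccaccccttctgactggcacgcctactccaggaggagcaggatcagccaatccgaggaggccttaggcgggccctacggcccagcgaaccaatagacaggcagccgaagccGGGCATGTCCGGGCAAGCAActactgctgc
Ccng1: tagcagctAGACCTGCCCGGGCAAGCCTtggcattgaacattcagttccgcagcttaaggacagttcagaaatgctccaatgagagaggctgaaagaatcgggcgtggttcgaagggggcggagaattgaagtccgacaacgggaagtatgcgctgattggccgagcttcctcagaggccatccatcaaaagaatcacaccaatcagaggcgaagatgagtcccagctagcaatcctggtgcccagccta

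The windows of Mdm2, Btg2, Gadd45a and Gadd45b held no match at this limit, which says only that these letters were not in those windows. A lone consensus decamer without mismatch, which every full site here also contains, stood in 7.98% of all windows and, besides Cdkn1a, Aen and Ccng1, in that of Gadd45a. In human and mouse Mdm2 the known p53 sites lie in the first intron, and where their rat counterparts lie relative to this window was not tested. The windows of Mdm2 and Gadd45b lie inside the listed gene spans (chr7:55176558-55201757 and chr7:9428689-9430991). The start used for these 2 genes is therefore downstream of the 5′ end of the span, and sequence before that end was not searched. The 2 genes that rose with DE-71 are shown for comparison, Mdm2 (chr7:55200792-55201041, minus strand) and Gadd45b (chr7:9430719-9430968, minus strand).
Mdm2: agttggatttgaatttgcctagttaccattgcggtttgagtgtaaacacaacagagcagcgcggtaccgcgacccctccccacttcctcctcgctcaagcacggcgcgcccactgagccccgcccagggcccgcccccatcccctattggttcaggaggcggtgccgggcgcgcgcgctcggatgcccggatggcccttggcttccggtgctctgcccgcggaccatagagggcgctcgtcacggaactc
Gadd45b: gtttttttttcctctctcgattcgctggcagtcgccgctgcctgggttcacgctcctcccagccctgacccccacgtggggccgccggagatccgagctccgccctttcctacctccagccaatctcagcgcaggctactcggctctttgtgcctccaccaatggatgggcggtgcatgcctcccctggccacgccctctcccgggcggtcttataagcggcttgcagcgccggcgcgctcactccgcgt

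**Figure D3:**
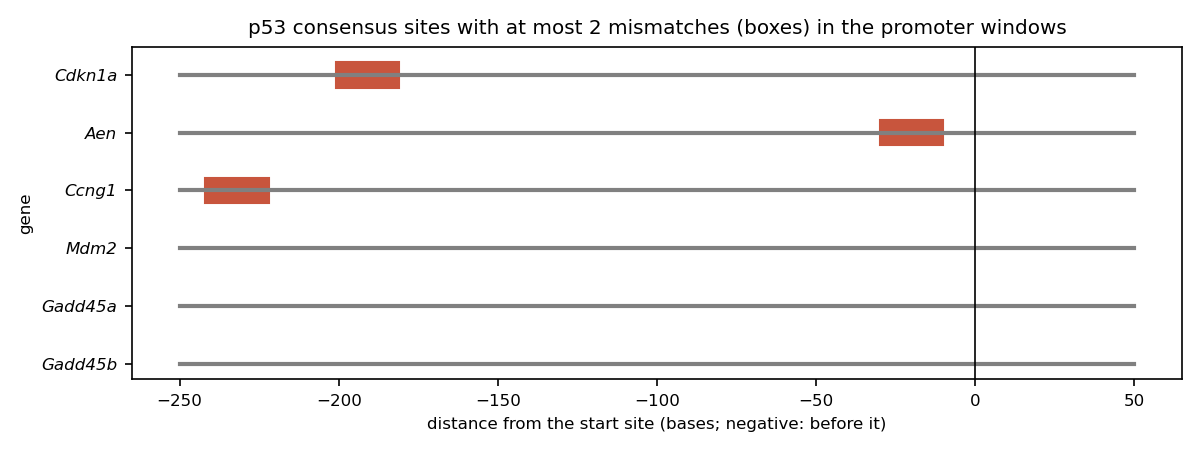
Position of p53 consensus sites with at most 2 mismatches (boxes) in the promoter windows of the 6 genes, in bases from the start site, with negative values before it. Cdkn1a, Aen and Ccng1 hold 1 site each, all before the start, and the other windows hold none.

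Among all genes on the array, 34 had a promoter window with such a site. In DE-71 adults, 0 of them rose and 2 fell, a share of 5.88% against 3.9% of all genes, and those 2 were Cdkn1a and Aen. The search was added after these 2 falls were seen, so the adult share cannot tell whether genes with a site fell more often. In male pups 3 rose and 1 fell (11.8%, against 7.48% of all genes), and in female pups 2 rose and 0 fell (5.88%, against 6.13%). The median log2 change of the 34 genes was 0.0236 in adults, 0.0187 in male pups and 0.0324 in female pups, beside 0.00915, 0.0202 and 0.0161 over all genes.

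Most other genes of the p53 pathway did not pass the test, with a few large exceptions. Among 16 regulators of p53 that could be read, Chek1, the kinase that halts the cell cycle at damaged DNA, was the gene called in pups (6.25%, against 7.48% of all genes in males and 6.13% in females). It averaged 7.29 ± 0.38 in male DE-71 pups and 5.75 ± 0.13 in male controls, a rise of 1.54 ± 0.19 on the log2 scale (limma adjusted p = 1.89e-06). In female pups it averaged 7.72 ± 0.54 with DE-71 and 5.77 ± 0.22 in controls, a rise of 1.95 ± 0.19 (limma adjusted p = 3.22e-08). In adults 0 regulators were called, by the test or at an unadjusted p below 0.05 (18.5% of all genes), and the Chek1 change there differed from that in male pups by -1.77 ± 0.27 (limma adjusted p = 3.70e-04). Mdm4, the partner of Mdm2 that binds p53 without degrading it, had -0.41 ± 0.20 in male pups, -0.03 ± 0.20 in female pups and 0.13 ± 0.20 in adults (limma adjusted p 0.203, 0.96 and 0.804).

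Of 32 other p53 target genes read, 2 rose and 2 fell in male pups, 3 rose and 2 fell in female pups, and 3 rose and 1 fell in adults. These were 12.5%, 15.6% and 12.5% of the list, against 7.48%, 6.13% and 3.9% of all genes. Their median log2 change was 0.0264 in male pups, 0.0277 in female pups and 0.0309 in adults, beside medians of 0.0202, 0.0161 and 0.00915 over all genes. Perp, a membrane protein of cell junctions and apoptosis, rose by 0.74 ± 0.10 in male pups, 0.64 ± 0.10 in female pups and 0.37 ± 0.10 in adults (limma adjusted p 1.09e-05, 8.38e-05 and 0.0399). Trim32, a ubiquitin ligase, rose by 0.50 ± 0.09, 0.47 ± 0.09 and 0.41 ± 0.09 in the same order (limma adjusted p 5.44e-04, 0.00135 and 0.0106). Rprm, which holds cells in G2, fell by 1.74 ± 0.35 in male pups, by 2.00 ± 0.35 in female pups and by 1.53 ± 0.35 in adults (limma adjusted p 0.00104, 2.58e-04 and 0.0101).

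The other targets that passed the test did so in 1 setting each. In male pups Ddit4, an inhibitor of mTORC1, fell by 0.84 ± 0.21 (limma adjusted p = 0.00868). In female pups Sesn1, a stress-induced regulator of mTORC1, fell by 0.58 ± 0.14 (limma adjusted p = 0.00809) and the repair gene Ddb2 rose by 0.40 ± 0.09 (limma adjusted p = 0.00365). In adults the receptor kinase Epha2 rose by 0.68 ± 0.19 (limma adjusted p = 0.0442). Phlda3, an inhibitor of Akt signalling, had differences of opposite sign at the 2 ages. It averaged 7.61 ± 0.20 in male DE-71 pups and 7.07 ± 0.41 in male controls. At week 13 it averaged 8.30 ± 0.16 in DE-71 adults and 8.81 ± 0.17 in adult controls. Neither difference passed the test (limma adjusted p 0.0463 at a threshold of 0.01, and 0.119), but the adult minus the male pup change was -1.05 ± 0.25 (limma adjusted p = 0.0234).

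**Figure D4:**
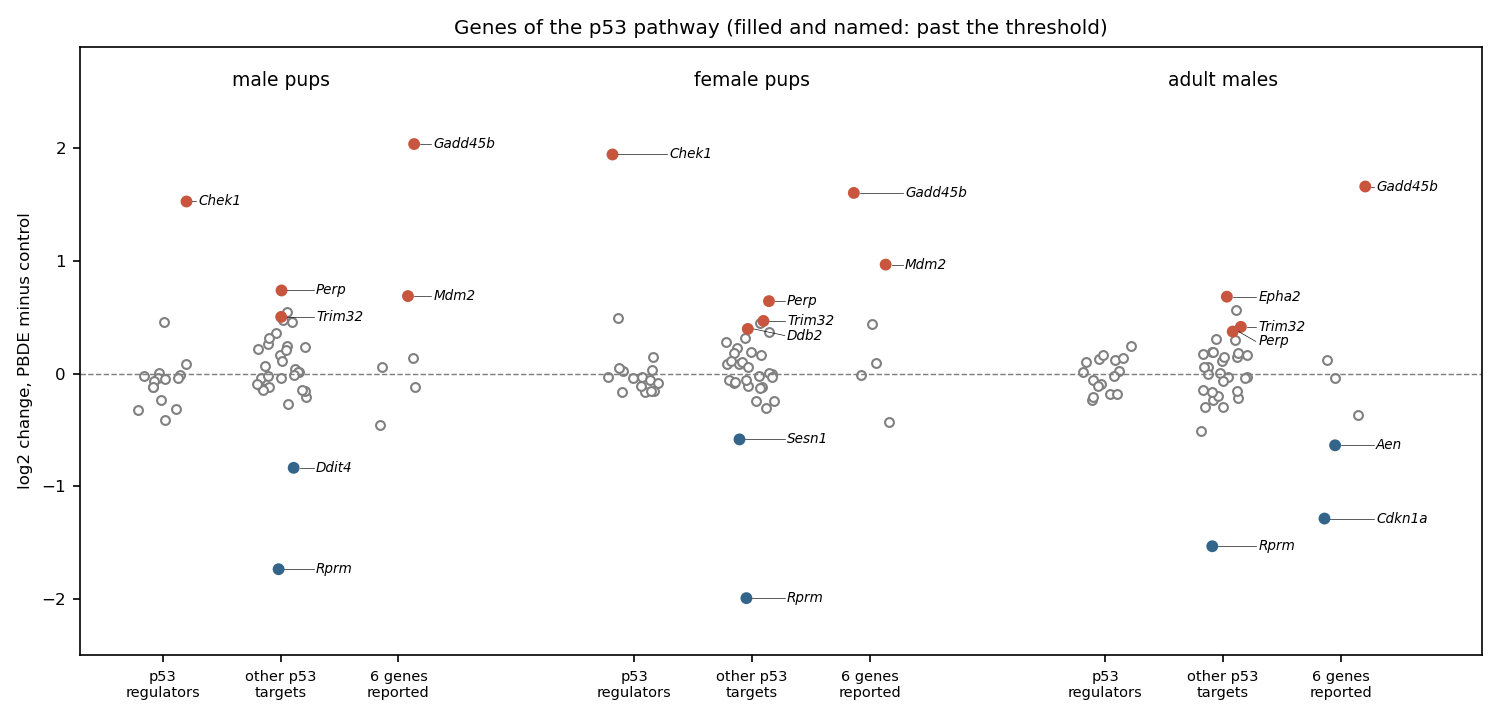
Log2 change, DE-71 minus control, of p53 regulators, other p53 targets and the 6 genes described here, each point a gene, in male pups, female pups and adult males. Filled and named points passed the test. Most points lie near 0 in all 3 settings, with Chek1 high in pups and Rprm low throughout.

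Cdkn1a and Ccng1 act beside other CDK inhibitors, cyclins and CDKs. Of 19 read, 2 rose and 2 fell in male pups (21.1%, against 7.48% of all genes), and 0 rose and 1 fell in female pups (5.26%, against 6.13%). In adults 0 were called, against 3.9% of all genes, and 5 had an unadjusted p below 0.05 (26.3%, against 18.5%). In male pups Ccng2, the relative of cyclin G1 that slows the cycle, rose by 1.22 ± 0.20 (limma adjusted p = 9.21e-05) and the mitotic cyclin Ccnb1 by 0.96 ± 0.19 (limma adjusted p = 0.00112). The G1 cyclins Ccnd1 and Ccnd2 fell by 1.22 ± 0.30 and by 0.51 ± 0.10 (limma adjusted p 0.00651 and 0.00109). In female pups Cdkn1c, which encodes the CDK inhibitor p57, fell by 0.62 ± 0.13 (limma adjusted p = 0.00183).

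Bax belongs to the BCL2 family, whose members promote or block the opening of the outer mitochondrial membrane. Of 14 relatives read, 2 rose in male pups, 1 in female pups and 1 in adults, and 0 fell (14.3%, 7.14% and 7.14%, against 7.48%, 6.13% and 3.9% of all genes). Bnip3l, a receptor for the removal of mitochondria, rose in all 3 settings, by 0.60 ± 0.06, 0.63 ± 0.06 and 0.26 ± 0.06 in male pups, female pups and adults (limma adjusted p 6.96e-08, 3.22e-08 and 0.0142). The killer protein gene Bcl2l11 rose in male pups by 1.07 ± 0.25 (limma adjusted p = 0.00458). Btg2 belongs to the BTG and TOB proteins, which recruit the CCR4-NOT complex that shortens the tails of mRNAs. Of 10 genes read of that family and complex, 0 rose in any dose comparison, and 1 fell in male pups and 2 in female pups (10% and 20%, against 7.48% and 6.13% of all genes). The deadenylase Cnot7 fell by 0.39 ± 0.08 in male pups and by 0.42 ± 0.08 in female pups, and Btg1 fell by 0.55 ± 0.10 in female pups (limma adjusted p 0.0022, 0.0014 and 6.89e-04). In adults 0 were called, while 3 had an unadjusted p below 0.05 (30%, against 18.5% of all genes).

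Genes of the CAR and PXR response to foreign compounds, which PBDE mixtures are known to activate in rats, had larger median changes than the p53 target list. Of 13 read, 8 rose and 1 fell in male pups, 8 rose and 2 fell in female pups, and 7 rose and 0 fell in adults, with median log2 changes of 1.13, 1.07 and 0.584. These were 69.2%, 76.9% and 53.8% of the list, against 7.48%, 6.13% and 3.9% of all genes. Both lists were chosen with earlier results of these data known, so these shares and medians are descriptions and test neither pathway. The carboxylesterase Ces2c rose by 3.17 ± 0.21, 2.22 ± 0.21 and 2.09 ± 0.21 in male pups, female pups and adults, and the transporter Abcc3 by 1.69 ± 0.25, 1.73 ± 0.25 and 3.81 ± 0.25 (limma adjusted p at most 2.77e-05 for each). Por, the reductase that feeds electrons to cytochrome P450 enzymes, rose by 1.13 ± 0.14, 1.31 ± 0.14 and 1.15 ± 0.14, and the glucuronosyltransferase Ugt2b1 by 1.28 ± 0.12, 1.07 ± 0.12 and 1.75 ± 0.12 (limma adjusted p at most 5.34e-06). The cytochrome P450 gene Cyp2c7 rose by 4.57 ± 0.29 in male pups and 3.20 ± 0.29 in female pups (limma adjusted p 7.45e-12 and 1.09e-08) and had 0.17 ± 0.29 in adults (limma adjusted p = 0.838).

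Some p53 targets differed between adult and pup control males, whose arrays also lay in different array sets. The Gapdh 3′ minus 5′ difference averaged 0.619 ± 0.184 in adult controls and 1.61 ± 0.33 in male pup controls (SD, n = 5), and was not tested between ages. Cdkn1a, Aen and Ccng1 were higher in adult than in pup controls, and no gene of the 6 was lower, while 29.5% of all genes were called in this comparison, 10.9% as higher. Cdkn1a averaged 9.67 ± 0.25 in adult controls and 8.28 ± 0.26 in pup controls, a 2.62-fold difference (log2 1.39 ± 0.22, SE, limma adjusted p = 2.12e-05). Aen averaged 8.12 ± 0.22 in adult controls and 7.30 ± 0.16 in pup controls (0.82 ± 0.13, limma adjusted p = 3.04e-05). Ccng1 averaged 9.63 ± 0.33 in adult controls and 8.81 ± 0.13 in pup controls (0.82 ± 0.13, limma adjusted p = 2.63e-05). For each of the 3 genes the 2 control groups did not overlap, as was so in the higher direction for 7.69% of all genes.

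Mdm2 had 8.49 ± 0.21 in adult and 8.23 ± 0.13 in pup controls (0.26 ± 0.12, limma adjusted p = 0.107), and its other probe sets were higher in adults by 0.47 ± 0.10 and 0.50 ± 0.09 (limma adjusted p 7.06e-04 and 1.80e-04). Gadd45b had -0.13 ± 0.20 and Gadd45a -0.26 ± 0.36 (limma adjusted p 0.718 and 0.674). In DE-71 males limma called 0 of the 6 representatives between the ages, against 18.8% of all genes. At an unadjusted p below 0.05 there were 5 of the 6, against 31.9% of all genes. Cdkn1a averaged 8.38 ± 0.60 in DE-71 adults and 7.82 ± 0.31 in DE-71 pups (0.56 ± 0.22, limma adjusted p = 0.0916), and Mdm2 averaged 8.61 ± 0.25 in DE-71 adults and 8.92 ± 0.23 in DE-71 pups (-0.31 ± 0.12, limma adjusted p = 0.0763). The other Mdm2 probe sets differed in sign. Probe set 1384427_at had -0.28 ± 0.10 (limma adjusted p = 0.0552), and 1383485_at was called higher in adults, by 0.28 ± 0.09 (limma adjusted p = 0.0463). The comparison of ages in controls and the adult dose comparison share the adult control arrays.

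**Figure D5:**
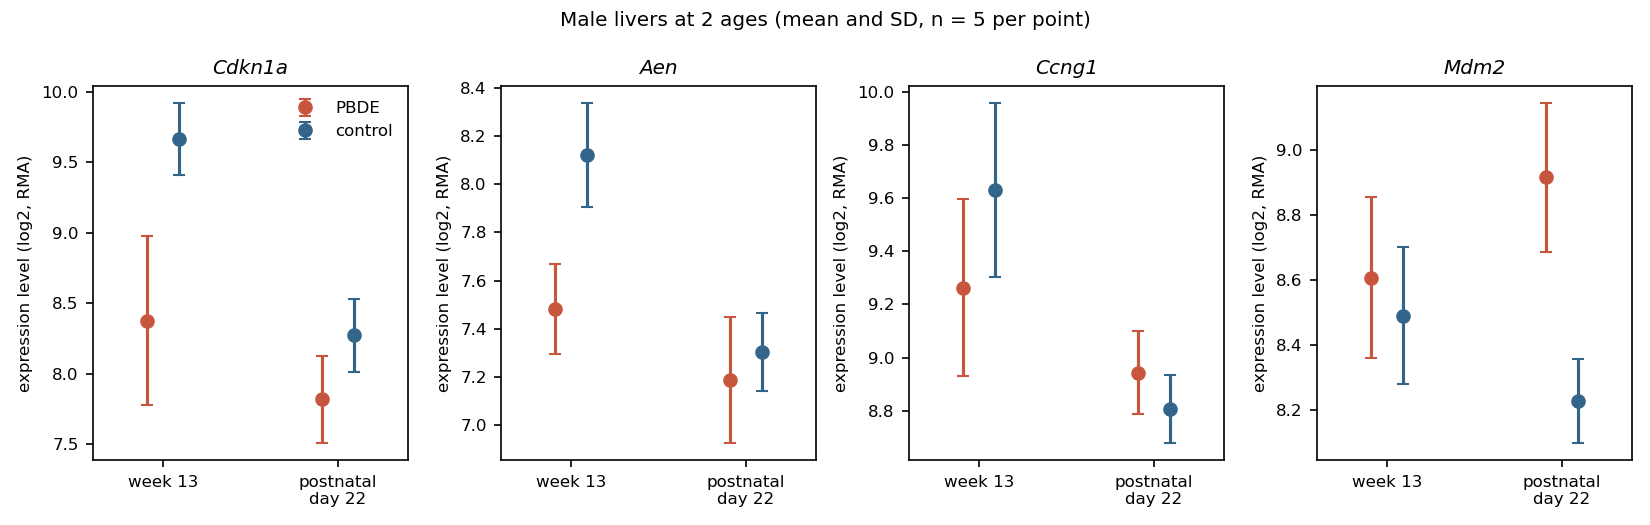
Mean expression level (log2, RMA) with SD (n = 5) of Cdkn1a, Aen, Ccng1 and Mdm2 in male livers at week 13 and on postnatal day 22, DE-71 in red left of controls in blue. Adult controls are highest for Cdkn1a, Aen and Ccng1, and DE-71 pups are highest for Mdm2.

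The direct test of whether the DE-71 change differed between adults and male pups called 0 of the 6 representatives and 2.48% of all genes. Of the 6, 4 had an unadjusted p below 0.05, against 16.1% of all genes, and those 4 had a lower change in adults. The median difference of the 6 was -0.513, against -0.0111 for all genes. The second probe sets of Cdkn1a, Aen and Mdm2 passed it, as given above. In male pups that of Cdkn1a averaged 5.233 with DE-71 and 5.515 in controls, and that of Aen 4.968 and 5.032. These levels lay below the median of all probe sets, 5.74, and whether a fall could register there was not tested. The third probe set of Mdm2, 1383485_at, had -0.23 ± 0.13 (limma adjusted p = 0.473). With the mean of all probe sets of a gene in place of the representative, Cdkn1a, Aen and Mdm2 passed (limma adjusted p 0.0118, 0.0152 and 0.00345).

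The other p53 targets between control ages included more higher than lower genes, 9 and 3 of 32 (37.5%, against 29.5% of all genes), with a median of 0.121 against -0.0181 for all genes. Phlda3 was higher in adult controls by 1.75 ± 0.18 (limma adjusted p = 1.50e-08), Sesn2, a sensor of amino acids that restrains mTORC1, by 0.92 ± 0.12 (1.77e-06) and the stress hormone gene Gdf15 by 0.87 ± 0.26 (0.0149), whereas Ddit4 was lower by a log2 change of -1.61 ± 0.21 (limma adjusted p = 1.28e-06). Of the 19 cyclins, CDKs and CDK inhibitors, 2 were higher and 9 lower in adult controls (57.9%, against 29.5% of all genes). Ccna2 and Cdk1, which drive DNA replication and mitosis, had log2 changes of -1.97 ± 0.28 and -1.46 ± 0.24, and Ccng2 had 1.64 ± 0.20 (limma adjusted p at most 2.82e-05). Gadd45g was higher in adult controls by 1.61 ± 0.55 (limma adjusted p = 0.0323), and of the stress kinases Mapk9 was higher by 1.34 ± 0.13 (limma adjusted p = 1.31e-08) and Map2k3 lower by a log2 change of -0.35 ± 0.10 (limma adjusted p = 0.0129). Stellate cell markers were lower in adults for 5 of 6 genes, erythroid markers for 3 of 4 and cholangiocyte markers for 1 of 3, in both treatments. Endothelial markers were lower in adult controls for 3 of 5 genes (median -0.455), while in DE-71 males 2 were higher and 2 lower in adults (median -0.061). Of 6 Kupffer cell markers 1 was called, as lower in adults, in both treatments, while the list medians were 0.17 in controls and 0.166 in DE-71 males. These marker counts stand beside 29.5% of all genes called in controls and 18.8% in DE-71 males, and their part in the age differences was not tested.

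No sex difference was detected in the 6 genes. Between male and female pups, limma called 0 of the 6 genes in controls, 0 with DE-71 and 0 for the difference in dose change, and 0 had an unadjusted p below 0.05 in each. Over all genes 0.0422%, 0.0563% and 0% were called in these comparisons, and 8.71%, 5.15% and 5.63% of all genes had an unadjusted p below 0.05. In controls the largest difference on this list was that of Gadd45a, with 9.05 ± 0.62 in males and 8.50 ± 0.50 in females (log2 0.55 ± 0.36, 95% interval -0.19 to 1.29). For Mdm2 the change in male minus female pups was -0.28 ± 0.16, with a 95% interval of -0.62 to 0.06 (limma adjusted p = 0.977).

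Animals of a group varied together in some of these genes. Over the 30 arrays, after subtraction of group means, Pearson's r was 0.626 between Cdkn1a and Aen, 0.515 between Cdkn1a and Ccng1, 0.533 between Aen and Mdm2, and -0.521 between Cdkn1a and Gadd45b, while Mdm2 and Gadd45b had -0.164. These are descriptions, since the arrays share labelling and normalization. In DE-71 adults replicate 4 had both the highest Gadd45b and the lowest Cdkn1a, and replicate 2 the lowest Gadd45b and the highest Cdkn1a. The SD within groups was 0.376 for Cdkn1a and 0.344 for Gadd45b, larger than for 96.6% and 95.6% of genes, and 0.22 for Aen, 0.22 for Ccng1 and 0.19 for Mdm2, beside a median of 0.155.

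The genes whose levels ran most like each of the 6, by Pearson's r over the 30 arrays with group differences kept in, were mostly from other pathways. Gadd45b was most like App (r = 0.966), Snx10 (0.943) and Egln3 (0.926). Cdkn1a was most like Csrp1 (0.918), Aen (0.89) and Lysmd3 (0.874), and Aen in turn like Cdkn1a, Acadm (0.848) and 4930522L14Rikl (0.842). Ccng1 was most like 4930522L14Rikl (0.878), the p53 target Phlda3 (0.841) and Stac3 (0.834). Gadd45a was most like Myc (0.709), the growth-promoting transcription factor, followed by Parvb (0.65) and Cish (0.642). Mdm2 was most like Slc35e3 (0.877), Retreg3 (0.858) and Pelo (0.856).

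Slc35e3, a solute carrier family member, and Cpm, carboxypeptidase M, are the protein-coding neighbours of Mdm2 on GRCr8. Slc35e3 rose by 0.63 ± 0.09 in male pups and 0.66 ± 0.09 in female pups (limma adjusted p 1.66e-05 and 1.07e-05), and had 0.06 ± 0.09 in adults (limma adjusted p = 0.816). Its change in adults minus that in male pups was -0.58 ± 0.13 (limma adjusted p = 0.0144). Cpm had 0.02, 0.03 and -0.03 in male pups, female pups and adults (limma adjusted p 0.938, 0.878 and 0.895).

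Markers of other liver cells moved with treatment in part. The mean level of 6 Kupffer cell markers was between 8.74 and 8.88 in male DE-71 pups and between 9.19 and 9.44 in male controls, with 2 of 6 called lower. In female DE-71 pups it was between 8.72 and 9.28, against 8.88 to 9.94 in female controls, with 0 of 6 lower. In DE-71 adults it was between 8.45 and 9.25, against 9.12 to 9.69 in adult controls, with 1 of 6 lower. At an unadjusted p below 0.05 there were 4 of the 6 in male pups, 1 in female pups and all 6 in adults, against 28.3%, 25.4% and 18.5% of all genes, and the median log2 changes of the list were -0.56, -0.253 and -0.477. The mean of 5 endothelial markers was between 9.18 and 9.51 in male DE-71 pups and between 9.79 and 10.1 in male controls, with 3 of 5 lower. In female pups it was between 9.30 and 9.64 with DE-71 and between 9.76 and 10 in controls, with 1 of 5 lower, and in adults between 9.15 and 9.59 with DE-71 and between 9.34 and 9.57 in controls, with 0 of 5 lower. Endothelial markers with an unadjusted p below 0.05 numbered 4 in male pups, 4 in female pups and 1 in adults. Their list medians were -0.474, -0.343 and -0.113. Over all genes limma called 7.48%, 6.13% and 3.9% in the same order. Of 6 lymphocyte markers, 5 lay below the array median in every group. Of 3 cholangiocyte markers 1 was called, as higher, in each dose comparison. It was Epcam, an adhesion protein of bile duct and hepatic progenitor cells, which rose by 1.07 ± 0.18 in male pups, 0.92 ± 0.18 in female pups and 1.13 ± 0.18 in adults (limma adjusted p 1.41e-04, 9.35e-04 and 3.17e-04). The mean of the 3 was between 6.65 and 7.13 in male DE-71 pups and between 6.37 and 6.75 in male controls, between 6.46 and 6.85 in female DE-71 pups and between 6.23 and 6.76 in female controls, and between 6.36 and 6.62 in DE-71 adults and between 5.94 and 6.25 in adult controls. Of 4 erythroid markers, limma called 0 in each dose comparison. In female pups 3 had an unadjusted p below 0.05 and DE-71 arrays that all lay above all controls. Groups that did not overlap in the higher direction made up 6.56% of all genes there, and the 2 groups lay in different array sets. The mean erythroid level in female pups was between 9.07 and 9.31 with DE-71 and between 8.4 and 8.86 in controls. Of 6 stellate cell markers limma called 1, Lrat, as lower in female DE-71 pups, and 0 in male pups and adults. Those with an unadjusted p below 0.05 numbered 1 in male pups, 3 in female pups and 1 in adults. The median log2 changes of that list were -0.0669, 0.188 and 0.0301 in the same order. Of 5 hepatocyte and 3 neutrophil markers limma called 0 in any dose comparison. Those with an unadjusted p below 0.05 numbered 3 and 1 in female pups, and 0 in male pups and adults. The part of these cells in the changes of the 6 genes was not tested. With the Gapdh 3′ minus 5′ difference as a covariate, the calls of the 6 genes in the dose comparisons were as without it, with log2 changes in adults of -1.46 for Cdkn1a, -0.76 for Aen and 1.72 for Gadd45b, and changes of Mdm2 of 0.57 in male and 0.80 in female pups.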

How the data were processed

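Total liver RNA was labelled from the 3′ end in 2 cycles and hybridised to Affymetrix Rat Genome 230 2.0 arrays, per the labels' protocols. The deposited values are on the log2 scale and were made by the authors with RMA (background correction, quantile normalization and probe summary), per the submitters' processing notes, for which the sources used here name no software or version. It covered 31099 probe sets and 30 arrays, with 0 unused value columns, and 57 control probe sets were kept apart. A platform table, with 20758 symbols updated by Entrez ID, tied 20826 probe sets to 1 gene, 436 to several and 9780 to none. The number of arrays limits the precision.

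Groups came from the labels. A model of 6 group means took in every array (limma 3.58.1 lmFit and eBayes, R 4.3.3), with Benjamini-Hochberg adjustment over 31042 probe sets at 0.01 for pups and 0.05 for adults and ages, after the series' design text, which gives no threshold for age by dose and no comparison of ages alone. The fit was tested on simulated data. The array-name prefix could not enter as a term because each group lay in 1 set. Gapdh differences were compared by two-sided exact permutation tests, whose smallest possible p is 0.00794. Replicate numbers do not name a shared dam, and same-number arrays had a mean residual correlation of 0.00417 with 18 of 75 pairs above 0.1, so they were not taken as pairs. No 2 arrays held identical values.

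The 8 genes and 7 pathway lists (126 genes, 112 read) were chosen with earlier results of these data known. Named were the 8 genes, up to 4 genes per list and comparison with the largest change past the threshold, Mdm4 and Gadd45g, and the 3 genes most correlated with each gene read. Not every gene that the rule names is printed in each comparison. Ddb2, the other values of Phlda3 those of Cpm and the marker genes named were added after their values were seen, as was the promoter search. Alternatives were renewed quantile normalization, a filter on low values, the mean of probe sets, robust moderation, the Gapdh covariate, a replicate block, the compared groups alone, and each replicate left out.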

Additional observations from a re-analysis of the deposited data

Results flagged for a closer look

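In a test for a lone distant array within each group of 5, applied to the 6 genes in 6 groups (36 groups, of which chance marks about 1 in 20), 1 array stood apart. It was replicate 1 of the male DE-71 pups for Aen, at 7.635 (log2) with the nearest array at 7.168, a gap of 0.723 of the range against a critical value of 0.71.

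The change with DE-71 in adults minus that in male pups differed from 0 by limma's interaction test (Benjamini-Hochberg adjusted p under 0.05) for these probe sets. The second probe set of Cdkn1a, 1387391_at, had -1.92 ± 0.39 (SE, adjusted p = 0.00693), that of Aen, 1384997_at, -0.71 ± 0.17 (adjusted p = 0.0251), and that of Mdm2, 1384427_at, -0.76 ± 0.14 (adjusted p = 0.00365). Those of Cdkn1a and Aen averaged below the median of all probe sets in male pups of both treatments. Among p53 regulators and other targets, Chek1 had -1.77 ± 0.27 (adjusted p = 3.70e-04), Phlda3 -1.05 ± 0.25 (0.0234) and Ei24 -0.40 ± 0.09 (0.024). Bnip3l of the BCL2 family had -0.34 ± 0.09 (0.0342) and the mitotic cyclin Ccnb1 -1.12 ± 0.27 (0.0254). Of the CAR and PXR genes, Cyp2c7 had -4.40 ± 0.41 (1.18e-07), Abcc2 -1.09 ± 0.21 (0.00398), Abcc3 2.11 ± 0.35 (0.00121) and the receptor Nr1i2 0.54 ± 0.12 (0.0147). The endothelial marker Fcgr2b had 0.64 ± 0.16 (0.0382). Negative values mean a lower change in adults.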

How the results depend on the processing

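Over 37 alternatives, the 18 dose results of the 6 genes gave 666 values, of which 665 stayed on their side of the threshold, 0 lost a call and 0 called changes reversed. Of the 37, 30 left out 1 replicate. For each dose comparison most of these removed an array outside the compared groups. That leaves the log2 change as it was and alters only the shared spread, so many of the 666 values could hardly move. The 1 gained call was Ccng1 in adults without replicate 3 of the adult controls (-0.48, limma adjusted p = 0.0488). Gadd45b ranged from 1.87 to 2.16 in male pups, 1.51 to 1.71 in female pups and 1.46 to 1.83 in adults, Mdm2 from 0.48 to 0.75 and from 0.57 to 1.03 in male and female pups, and in adults Cdkn1a from -1.75 to -1.09 and Aen from -0.76 to -0.59. The adult dose comparison called 555 genes, 173 with the compared groups alone (fewer arrays), and 366 to 617 with 1 replicate left out, the lowest without replicate 4 of the DE-71 adults.

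For age by dose, the 0 calls among the 6 genes became 1 with the filter on low values and 1 with the Gapdh covariate (Mdm2, adjusted p 0.0457 and 0.0183), 3 with the mean of all probe sets, and 0 to 1 with a replicate left out (Mdm2 without replicate 2 of the male DE-71 pups, 5 of the adult controls or 5 of the DE-71 adults), and genes called numbered 230 to 408 against 352, the lowest without replicate 5 of the male control pups. Between ages in controls, the covariate gave 2711 genes against 4193, and Mdm2 joined the 3 called genes under 4 alternatives (0.30 with renewed normalization, 0.41 with the mean of probe sets, 0.51 with the covariate and 0.33 without replicate 5 of the adult controls). Between ages with DE-71, 0 became 2 with the covariate (Aen 0.50, Cdkn1a 0.86) and 0 to 3 with a replicate left out, 3 of them without replicate 4 of the DE-71 adults (Ccng1, Cdkn1a and Gadd45b). Sex in DE-71 pups called 8 genes, 3 with the compared groups alone and 5 to 10 with a replicate left out, the lowest without replicate 2 of the female DE-71 pups. Sex in controls called 6 genes, 10 with the filter, 10 with the mean of probe sets, and 5 to 10 with a replicate left out, the highest without replicate 1 of the male controls. Sex by dose called 0, and 0 to 1 with a replicate left out, the 1 without replicate 3 of the male DE-71 pups. The causes were not tested.

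The Gapdh difference ran from 0.541 to 0.88 in female pups and from 0.276 to 0.657 in adults with a replicate left out, with exact p between 0.00794 and 0.0873 and between 0.00794 and 0.0794, and the Actb control probe sets gave 0.579 in adults (exact p = 0.0714). The replicate numbers were not taken as pairs. For 11 of 30 arrays the closest one outside the group had the same number. This is a larger share than matching without regard to number would give, and what arrays of a number share was not tested. With a replicate block, the dose comparisons called 1036, 830 and 568 genes in male pups, female pups and adults, against 1064, 872 and 555, and Mdm2 in age by dose had an adjusted p of 0.0826. The block changed no call of the 6 genes. The deposited values carry no detection call, so whether low probe sets lay above background was not tested.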
